A study of Mus musculus with 8 samples.

Results

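Lin28a, Lin28b, Trim71, Myc, Mycn, Hmga1, Hmga2, Igf2bp1, Igf2bp2 and Igf2bp3 are 10 genes tied together by the let-7 microRNAs and by their roles in growth of the embryo. They were chosen by name, all 10 were found among 32780 genes summed from transcripts, and all 10 were among the 15097 genes with enough counts to test. The data were total RNA sequencing of the mouse embryonic stem cell line TC1, wild-type throughout, before differentiation (day 0, 4 libraries, treatment given as control) and after 10 days of differentiation (day 10, 4 libraries). Cells of both days were dissociated to a single-cell suspension before extraction, and no other genotype, agent or time was used here. The labels do not tell whether replicates were separate cultures, so the p-values reflect a spread that may be technical only. No batch is named, and one that coincided with the day cannot be told apart from the effect of the day.

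LIN28A and LIN28B are RNA-binding proteins of early embryos that bind let-7 precursors and hold back their maturation. LIN28A does so with the uridylyl transferases TUT4 and TUT7. Mature let-7 in turn pairs through its seed with the 3′ UTRs of mRNAs that encode LIN28 proteins, the ubiquitin ligase and RNA-binding protein TRIM71, the chromatin protein HMGA2 and IGF2 mRNA-binding proteins, a set often called oncofetal because it is high in the embryo, low in most adult tissue and active again in some tumours. MYC and MYCN are transcription factors of growth and ribosome production, and stem cells need MYC activity for self-renewal. In bulk RNA, fewer cells of a type and less RNA per cell cannot be told apart.

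The seed is what links most of these genes, so mature members of the let-7 family are shown first. They are given 5′ to 3′, with bases 2 to 8 in capitals (sequences from RefSeq, GRCm38). All 9 family sequences in that table, miR-98 included, were 22 bases long and carried 1 seed, GAGGUAG. They differ outside it.
let-7a-5p: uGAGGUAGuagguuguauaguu
let-7c-5p: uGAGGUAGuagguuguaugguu
let-7e-5p: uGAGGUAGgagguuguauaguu
let-7g-5p: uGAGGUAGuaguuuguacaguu
miR-98-5p: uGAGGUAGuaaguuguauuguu

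The match to this seed in an mRNA reads CTACCTC, and it was searched on the transcript strand only in GENCODE M21 3′ UTRs, taking for each gene the transcript with the longest one. Of 14030 tested protein-coding genes with a 3′ UTR, 12.1% held at least 1 match. Among the 10 genes 8 held one and 2, Myc and Mycn, did not, with 21 matches in all, of which 13 were followed by an A. The 10 genes were chosen for their ties to let-7. More matches than in other genes, here and below, thus follow in part from that choice. One site of each gene with a match is shown here, 5′ to 3′ in DNA letters with the seed match in capitals, so that the flanks can be compared.
Lin28a: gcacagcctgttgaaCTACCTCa
Lin28b: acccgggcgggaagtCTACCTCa
Trim71: aacattgcctaagtcCTACCTCa
Hmga1: tcctctgttcacaaaCTACCTCt
Hmga2: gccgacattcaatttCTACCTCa
Igf2bp1: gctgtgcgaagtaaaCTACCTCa
Igf2bp2: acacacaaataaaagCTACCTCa
Igf2bp3: tgcatttttactcaaCTACCTCa
These sites started at base 909 of the UTR in Lin28a, 36 in Lin28b, 166 in Trim71, 801 in Hmga1, 58 in Hmga2, 1715 in Igf2bp1, 1313 in Igf2bp2 and 548 in Igf2bp3. Lin28b, Trim71, Hmga2 and Igf2bp1 each held 4 matches and Lin28a held 2. By the A that follows the match, Lin28a had 2 of 2, Igf2bp1 3 of 4, Lin28b 1 of 4 and Hmga2 1 of 4. For Hmga2, whose UTR was 3014 bases long, 17.7% of genes with a UTR within 25% of that length held a match and 0.149% held as many. For Igf2bp1, with a UTR of 6337 bases, the shares were 32% and 0.292%, for Lin28b (4445 bases) 25.1% and 0.249%, for Trim71 (5512 bases) 28.6% and 0.518%, and for Lin28a (2775 bases) 16.3% and 2.38%. Having 1 match, as Igf2bp2 and Igf2bp3 did, was less rare, with 13% and 14.4% of genes of like UTR length holding at least 1. The UTRs without a match were short, 466 bases in Myc and 913 in Mycn, and 3.8% and 7.96% of genes of like UTR length held one. Trim71 was the gene in which all 4 matches were followed by an A, and a pair of them, at bases 3591 and 3617, lay close together. The single match in Hmga1 lay in its longest UTR of 1183 bases, while its most abundant transcript had a UTR of 134 bases and 0 matches. A match is a run of letters and not a shown site of binding, and mature let-7 was not analysed here.

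Of the 15097 genes tested, 12399 (82.1%) differed between the days at an adjusted p under 0.05, 6449 (42.7%) higher and 5950 (39.4%) lower at day 10. The split was 7863 higher and 4095 lower on TPM and 4762 higher and 7827 lower after the trend with transcript length was removed, and the median log2 change of all tested genes moved from 0.06 to 0.43 and -0.38. Depth overlapped between the days, with 11242568 to 15808039 estimated counts per day 0 library and 13525255 to 17843651 per day 10 library. The 7 stem cell markers summed to 3172 to 3515 CPM (counts scaled to a library of 1000000) at day 0 and 19.8 to 58.8 CPM at day 10. Fibroblast and matrix markers summed to 5.07 to 8.12 CPM at day 0 and 5475 to 10146 CPM at day 10, and cardiomyocyte markers to 52.6 to 63.3 and 408 to 629 CPM. Most of the day 0 cardiomyocyte sum was Ryr2, at 50.8 ± 4.83 CPM, and 118.9 ± 9.77 CPM at day 10. Nppa had 0 counts in every day 0 library and 7 over the day 10 libraries, and was not tested. How far such a change of cell types makes up the changes below was not tested.

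All 10 genes differed between the days, 7 lower and 3 higher at day 10, against 82.1% of all tested genes. The median log2 change of the 10 was -1.75, beside 0.06 over all genes tested. Changes of more than 2-fold (tested against a log2 change of 1) were found for 9 of the 10, beside 41.4% of all genes. Those lower were Lin28a, Lin28b, Trim71, Myc, Mycn, Hmga1 and Igf2bp1, 7 genes where the background is 17.3%, and those higher were Hmga2 and Igf2bp2, where it is 24.1%. In none of the 10 did the day 0 and day 10 libraries overlap in CPM, as for 77.9% of all tested genes.

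The LIN28 genes and Trim71 fell, and their day 10 libraries were uneven. Lin28a (ENSMUSG00000050966, minus strand of chr4:134003330-134018841, positions here and below from GENCODE M21 on GRCm38) was at 465, 461, 438 and 446 CPM in day 0 libraries 1 to 4 and at 38.8, 131, 81.8 and 56.8 CPM in day 10 libraries 1 to 4. Every day 10 library was below every day 0 library, and the highest day 10 library was more than 3 times the lowest. The mean went from 453 ± 12.6 to 77.0 ± 39.9 CPM (SD, n = 4 per day), a log2 change of -2.55 ± 0.36 (SE, edgeR adjusted p = 0.000406), or 5.87-fold lower. The coefficient of variation of Lin28a was 2.78% among day 0 libraries and 51.8% among day 10 libraries.

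Lin28b (ENSMUSG00000063804, chr10:45376620-45486395, minus strand), the paralogue that also binds let-7 precursors, was at 116, 118.8, 101 and 108 CPM at day 0 and at 24.9, 59.7, 29.4 and 33.0 CPM at day 10. Its second day 10 library stood about as far above the rest as that of Lin28a. The log2 change was -1.59 ± 0.26 (edgeR adjusted p = 0.000553), a 3.01-fold fall, and it passed the test for a change over 2-fold at an adjusted p of 0.0181. Trim71 (ENSMUSG00000079259, chr9:114507133-114564369, minus strand), which represses mRNAs in stem cells and is itself a classic let-7 target, was at 627, 608, 561 and 531 CPM at day 0 and at 61.7, 139.8, 106 and 82.8 CPM at day 10. It had the lowest log2 change of the 10 genes, -2.57 ± 0.24 (edgeR adjusted p = 1.85e-05), or 5.95-fold lower, and its groups were far apart. Lin28a was within error of it at -2.55 ± 0.36, and was the lower of these without day 10 library 2 (-2.94 against -2.80). By TPM, the length-scaled measure that allows levels of different genes to be compared, Lin28a and Lin28b together held 289 ± 13.2 TPM at day 0 and 80.4 ± 33.9 TPM at day 10.

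Myc and Mycn fell as well. Mycl, which is not among the 10 genes, was higher at day 10, at 7.35 ± 1.09 and 12.2 ± 4.72 CPM (log2 0.73 ± 0.24, edgeR adjusted p = 0.0137). Its libraries overlapped between the days, and it did not pass once the length trend was removed (log2 0.54). Mycl is named here after its values were seen. Myc (ENSMUSG00000022346, chr15:61985391-61990374, plus strand) was at 39.2, 21.5, 26.7 and 19.4 CPM at day 0 and at 7.21, 4.88, 5.77 and 5.94 CPM at day 10. Here the spread lay at day 0, where the first library was the highest, and the coefficient of variation reached 33.2%, against 16.2% for day 10 libraries. The log2 change was -2.16 ± 0.22 (edgeR adjusted p = 1.86e-06), a 4.47-fold fall. Mycn (ENSMUSG00000037169, chr12:12936093-12941914, minus strand), the paralogue typical of embryonic and neural progenitors, was at 129.5, 145, 141.7 and 141.4 CPM at day 0 and at 31.0, 56.3, 33.5 and 28.1 CPM at day 10, again highest in the second library. It fell 3.75-fold (log2 -1.91 ± 0.20, edgeR adjusted p = 2.12e-05). Mycn was the more abundant of the pair per length in every library, at 91.4 ± 4.47 TPM against 24.9 ± 11.2 TPM for Myc at day 0 and at 31.6 ± 11.9 against 6.77 ± 1.63 TPM at day 10.

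The HMGA genes, which encode AT-hook proteins that bind the minor groove of DNA and bend chromatin, moved in opposite directions. Hmga1 (ENSMUSG00000046711, chr17:27556497-27563674, plus strand) was at 189.8, 121.7, 186 and 183 CPM at day 0 and at 35.6, 39.9, 31.3 and 36.0 CPM at day 10, with 1 low library at day 0. It fell 4.75-fold (log2 -2.25 ± 0.14, edgeR adjusted p = 4.62e-08). Its near-identical copy Hmga1b can share reads with it and was at 123.5, 92.4, 122.1 and 115.7 CPM at day 0 and at 16.6, 33.2, 27.2 and 20.7 CPM at day 10. With both copies summed, an alternative chosen after the data were seen, the log2 change was -2.24. Hmga2 (ENSMUSG00000056758, chr10:120361275-120476469, minus strand), best known from mesenchymal tissue of the embryo and from let-7 repression through its long UTR, was at 31.4, 32.7, 33.7 and 34.3 CPM at day 0. At day 10 it was at 283, 234, 287 and 292 CPM. It rose 8.29-fold, the highest log2 change of the 10 genes, 3.05 ± 0.08 (edgeR adjusted p = 4.85e-13), with coefficients of variation of 3.80% (day 0) and 9.88% (day 10). Hmga2 thus rose while 5 of the other genes with a seed match (Lin28a, Lin28b, Trim71, Hmga1 and Igf2bp1) fell by more than 2-fold.

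The IGF2BP genes encode RNA-binding proteins that stabilise, localise or control translation of mRNAs such as those of IGF2, MYC and beta-actin, and each of the 3 followed its own course. Igf2bp1 (ENSMUSG00000013415, chr11:95957163-96005940, minus strand) was at 747, 776, 681 and 703 CPM at day 0 and at 304, 349, 319 and 286 CPM at day 10. It fell 2.31-fold (log2 -1.21 ± 0.07, edgeR adjusted p = 1.36e-09). Igf2bp2 (ENSMUSG00000033581, chr16:22059009-22163299, minus strand), the member of the family that stays widely expressed in adults, was at 84.7, 95.1, 89.2 and 93.9 CPM at day 0 and at 199.9, 219.7, 189 and 195 CPM at day 10. It rose 2.21-fold (log2 1.15 ± 0.07, edgeR adjusted p = 1.07e-09). Igf2bp2 passed the test for a change over 2-fold at an adjusted p of 0.0147, but not without day 0 library 1 or without day 10 library 2, where Hmga2 alone of the 3 higher genes passed.

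Igf2bp3 (ENSMUSG00000029814, chr6:49085223-49214957, minus strand) was at 169.7, 187, 181 and 181 CPM at day 0 and at 211, 220.2, 216 and 203 CPM at day 10. The groups were close but did not overlap, and the log2 change was 0.24 ± 0.06 (edgeR adjusted p = 0.00141), a 1.18-fold difference. Its direction depended on how transcript length was handled, with a log2 change of 0.68 on TPM and of -0.83 once the length trend was removed (edgeR adjusted p = 6.74e-09). Summed per length, the 3 genes held 350.2 ± 20.5 TPM at day 0 and 368 ± 22.4 TPM at day 10, and the libraries of the days overlapped (322 to 369 and 354 to 401 TPM). The makeup of that sum changed, from 236 ± 16 TPM of Igf2bp1 and 45.0 ± 4.61 TPM of Igf2bp2 at day 0 to 117 ± 10.5 and 139.5 ± 8.41 TPM at day 10. These gene levels count non-coding and retained-intron transcripts too. The leading coding transcript went from 128 ± 12.7 to 75.7 ± 8.39 TPM for Igf2bp1 and from 21.4 ± 1.48 to 57.9 ± 8.20 TPM for Igf2bp2. For Igf2bp3 it went from 62.1 ± 3.20 to 95.8 ± 5.74 TPM.

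Ranked by TPM, the most abundant of the 10 genes at day 0 was Hmga1 at 430 ± 81.5 TPM, followed by Lin28a at 249.5 ± 15 and Igf2bp1 at 236 ± 16 TPM, whose libraries overlapped. Trim71 at 96.3 ± 10.4 and Mycn at 91.4 ± 4.47 TPM also overlapped and came next. Igf2bp3 followed at 69.3 ± 3.92 TPM, then Igf2bp2 at 45.0 ± 4.61, Lin28b at 39.1 ± 5.72 and Myc at 24.9 ± 11.2 TPM, each overlapping its neighbour in the last 3. Hmga2 was lowest at 14.3 ± 0.316 TPM, below every library of Myc. The level of Hmga1 is uncertain per length, since its copy Hmga1b ran from 103 to 862 TPM between day 0 libraries, and a 120-base transcript of Hmga1b alone had 268 ± 329 TPM.

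At day 10 the order was led by Hmga2 at 159 ± 12.2 TPM and Igf2bp2 at 139.5 ± 8.41 TPM, which overlapped. By leading coding transcript, however, Igf2bp2 (57.9 ± 8.20 TPM) was below Igf2bp1 (75.7 ± 8.39 TPM) and Igf2bp3 (95.8 ± 5.74 TPM). Igf2bp1 (117 ± 10.5 TPM), Hmga1 (115 ± 12.5 TPM) and Igf2bp3 (111 ± 4.93 TPM) formed an overlapping middle. Lin28a had 62.6 ± 26.7 TPM, Mycn 31.6 ± 11.9, Trim71 21.9 ± 8.04 and Lin28b 17.8 ± 7.81 TPM, each overlapping the next, and Myc was lowest at 6.77 ± 1.63 TPM. Hmga2 thus moved from last to first among the 10 genes, with Hmga1b not counted.

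Ratios of TPM within a library compare paralogues without any scaling between libraries. The Hmga2 to Hmga1 ratio was 0.0272, 0.0458, 0.0334 and 0.0320 in the day 0 libraries and 1.66, 1.13, 1.46 and 1.36 in the day 10 libraries. Hmga2 was the minor gene in every day 0 library and the major one in every day 10 library, a log2 difference of 5.35 (exact permutation test, two-sided, p = 0.0286, adjusted p = 0.0381 over 4 ratios). The ratio of Igf2bp2 to the sum of Igf2bp1 and Igf2bp3 was 0.133 to 0.164 at day 0 and 0.594 to 0.647 at day 10 (log2 difference 2.05, exact permutation p = 0.0286, adjusted p = 0.0381). Non-coding and retained-intron transcripts of these genes are counted in it. Lin28b gained on Lin28a, with ratios of 0.157, 0.200, 0.128 and 0.149 at day 0 and of 0.320, 0.302, 0.207 and 0.338 at day 10 (log2 difference 0.88, exact permutation p = 0.0286, adjusted p = 0.0381).

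The Mycn to Myc ratio overlapped between days, at 2.16 to 5.54 and 2.86 to 8.51, and did not pass (log2 difference 0.21, exact permutation p = 0.686, adjusted p = 0.686). The smallest p that 70 assignments of the libraries allow is 0.0286. With day 10 library 1 or 4 or any 1 day 0 library left out, the 3 ratios that passed no longer did, at adjusted p of 0.0571 to 0.0762, while their log2 differences stayed between 5.25 and 5.50, 2.0 and 2.10, and 0.78 and 1.04.

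**Figure D1:**
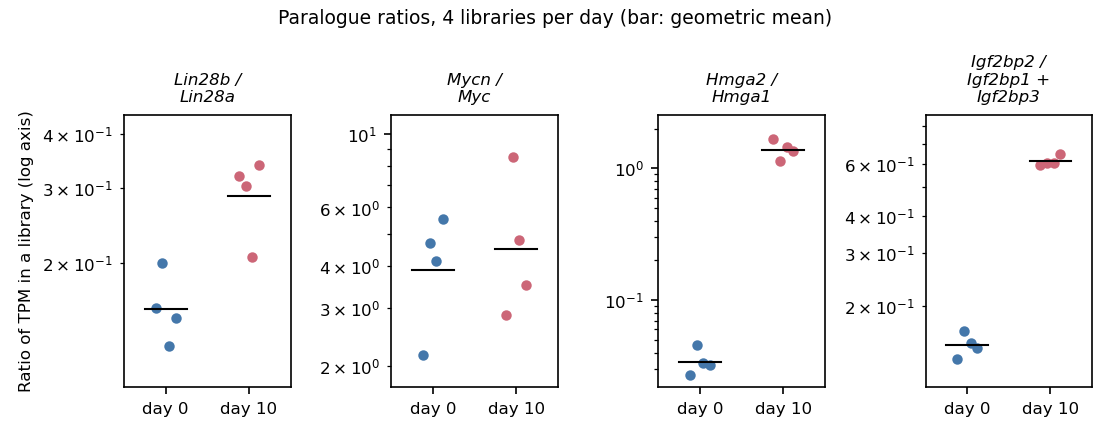
Ratio of TPM between paralogues in each library (log axes, each panel with its own range), day 0 in blue and day 10 in red, with a bar at the geometric mean of 4 libraries. The days do not overlap for Lin28b to Lin28a, Hmga2 to Hmga1, and Igf2bp2 to Igf2bp1 plus Igf2bp3, and they overlap for Mycn to Myc. The copy Hmga1b is not counted.

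Transcript shares were compared where a gene had a second transcript of weight. The full-length Igf2bp1-201, which holds the 6337-base UTR with 4 seed matches, made up 53.7, 59.0, 54.1 and 50.6% of the gene's TPM at day 0 and 62.5, 65.5, 69.7 and 60.3% at day 10. These groups did not overlap, but the difference of 10.2 percentage points did not pass over the 7 genes tested (exact permutation p = 0.0286, adjusted p = 0.200). Beside it a short non-coding transcript of 690 bases went from 73.4 ± 7.43 to 36.5 ± 4.16 TPM and one of 576 bases from 31.1 ± 9.53 to 2.87 ± 2.06 TPM. None of the other 6 genes passed, with exact permutation adjusted p of 0.300 to 0.971. Lin28a-201 held 81.8 ± 9.70% of Lin28a at day 0 and 71.2 ± 10.9% at day 10, Lin28b-201 74.2 ± 6.04% and 72.0 ± 2.78% of Lin28b, and Mycn-201 73.2 ± 8.45% and 72.5 ± 23.0% of Mycn. Mycn-201 ran from 47.3 to 98.9% between day 10 libraries, wider than any difference between the days. Hmga1, with 17 transcripts, had its leading one, of 600 bases, at 33.8 ± 4.26% and 36.1 ± 3.89%. Trim71 had 1 transcript, and Hmga2-201 held 87.6 ± 2.67% and 89.0 ± 0.404% of Hmga2, so on both days most of Hmga2 was the transcript with the 2977-base UTR that holds 4 matches. For Igf2bp2, the coding transcript Igf2bp2-201 went from 21.4 ± 1.48 to 57.9 ± 8.20 TPM, and the most abundant transcript annotated as a retained intron from 14.8 ± 1.84 to 42.7 ± 2.10 TPM. Myc-201 and Myc-205 were given equal TPM, 6.26 ± 2.23 at day 0, so these forms of Myc could not be told apart.

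The second library of day 10 stood apart for several of these genes, and 8 of the 10 were highest there, a comparison added after the values were seen. Compared with the mean of the other 3 day 10 libraries, it held 2.21 times as much Lin28a, 2.05 times as much Lin28b, 1.83 times as much Mycn and 1.67 times as much Trim71. Hmga2 and Myc were lowest in it, at 0.814 and 0.773 times. The same library was highest for 5 of 7 stem cell markers (summed 58.8 CPM against 19.8, 24.3 and 22.6 CPM in libraries 1, 3 and 4), for 5 of 6 visceral endoderm markers (3701 against 1116, 2559.7 and 2124 CPM) and for 6 of 6 neural markers (270 against 149, 141.6 and 135 CPM). It was the lowest for the sum of fibroblast and matrix markers, at 5475 CPM against 10146, 8396 and 7992 CPM. Most of the day 10 stem cell sum was Sox2, at 21.9 ± 16.5 CPM. Each other stem cell marker had a day 10 mean of 0.512 to 2.72 CPM. At day 0 the same sums were 3172 to 3515 CPM for stem cell, 441 to 480.3 for visceral endoderm and 102 to 117 for neural markers. No marker of these 4 lists was at 0 on either day in all libraries. Of the visceral endoderm markers, Cubn was at 450.7 ± 16.2 CPM at day 0 and 355.7 ± 230.4 CPM at day 10. Neither Cubn nor Amn passed. Afp, Ttr, Apoa1 and Apob, all higher at day 10, had day 0 means of 0.0632 to 1.76 CPM. Apob was at 1628 ± 727.2 CPM at day 10. Of the neural markers, Nes was at 44.6 ± 4.15 CPM at day 0 and 99.2 ± 5.66 CPM at day 10, and Map2 was also higher at day 10. Neurod1 was lower (log2 -2.59 ± 0.63, edgeR adjusted p = 0.00271), and Tubb3, Pax6 and Sox1 did not pass. The part of these cell types in the levels of the 10 genes was not tested. Without that library the log2 change was -2.94 for Lin28a, -1.93 for Lin28b, -2.80 for Trim71 and -2.18 for Mycn, all larger falls than with it.

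**Figure D2:**
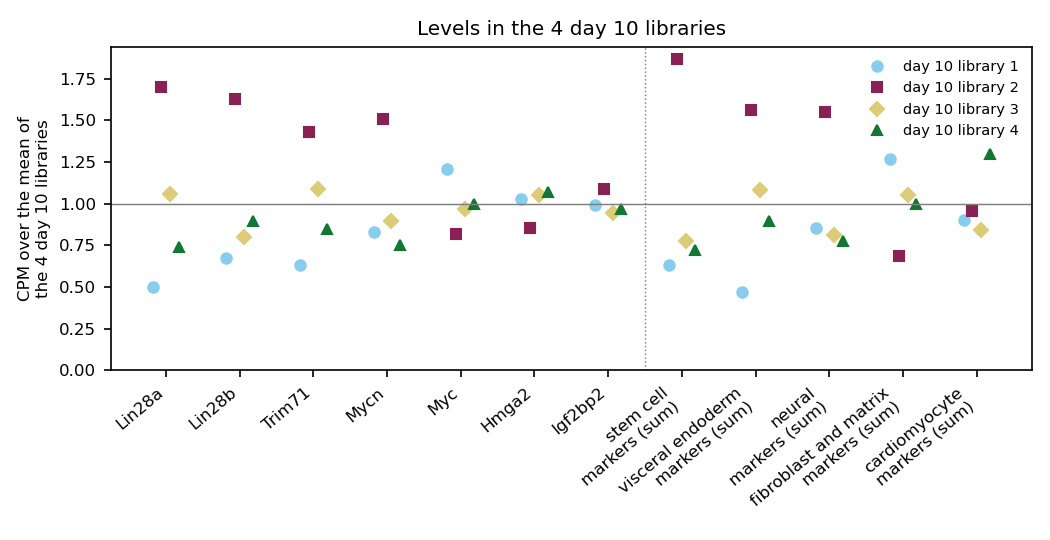
CPM in each of the 4 day 10 libraries divided by their mean, for 7 of the genes (left of the dotted line) and for summed marker lists (right of it). Library 2 is highest for Lin28a at 1.70, Lin28b at 1.63, Trim71 at 1.43 and Mycn at 1.51, and for stem cell (1.87), visceral endoderm (1.56) and neural (1.55) markers. Sox2, at 21.9 ± 16.5 CPM, made up most of the day 10 stem cell sum.

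The genes that make and use let-7 moved in both directions. Of 18 genes for let-7 precursor processing and microRNA action, 11 were higher, 6 lower and 1 did not pass, beside 42.7% higher and 39.4% lower of all tested genes, with a median log2 change of 0.35 beside 0.06. Tut4 and Tut7, the uridylyl transferases that LIN28A recruits, rose from 244 ± 7.28 to 541 ± 12.7 CPM (log2 1.15 ± 0.05, edgeR adjusted p = 1.34e-10) and from 78.0 ± 3.28 to 181 ± 10.4 CPM (log2 1.21 ± 0.06, edgeR adjusted p = 3.83e-10). Drosha, the nuclease that cuts primary microRNA transcripts, fell from 343 ± 20.1 to 165 ± 10.8 CPM (log2 -1.05 ± 0.07, edgeR adjusted p = 2.50e-09). Once the length trend was removed, the log2 changes were 0.26 for Tut4 and 0.33 for Tut7, which still passed, and -2.19 for Drosha. Tnrc6b, a scaffold of the silencing complex, rose from 158 ± 17.6 to 324 ± 13.9 CPM (log2 1.03 ± 0.08, edgeR adjusted p = 1.46e-08), but was lower once the length trend was removed (log2 -0.70). That correction turned the balance of the list to 5 higher and 13 lower, where 4762 of all 15097 tested genes were higher and 7827 lower. The list as a whole thus has no direction that holds under both treatments.

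Let-7 precursors carry in their terminal loop the motif that the zinc knuckles of LIN28 bind, GGAG, which is shown in capitals in 2 hairpins that have it and is missing from the third (5′ to 3′, RefSeq, GRCm38). It was searched as letters on the hairpin strand only, within 12 bases before the 3p arm.
let-7a-2: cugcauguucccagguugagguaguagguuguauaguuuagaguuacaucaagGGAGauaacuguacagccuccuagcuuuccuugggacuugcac
let-7c-1: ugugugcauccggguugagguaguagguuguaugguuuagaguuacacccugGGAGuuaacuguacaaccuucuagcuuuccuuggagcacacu
let-7b: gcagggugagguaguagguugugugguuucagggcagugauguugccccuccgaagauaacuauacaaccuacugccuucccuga
The let-7a-2 hairpin lies at chr9:41536716-41536811, let-7c-1 at chr16:77599657-77599750 and let-7b at chr15:85707319-85707403, all on the plus strand. Of 12 let-7 family hairpins 9 held GGAG in that window and 3 (let-7b, let-7c-2 and miR-98) did not, beside 5.92% of 692 hairpins of all families.

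Annotated genes that span these hairpins on the same strand were looked up by position after the values of 2 of them had been seen. Mir99ahg, the long non-coding host of let-7c-1, had 8 counts over the 4 day 0 libraries and 4211 over the day 10 libraries, a rise from 0.158 ± 0.116 to 68.8 ± 3.87 CPM (log2 8.73 ± 0.22, edgeR adjusted p = 2.95e-13), with a log2 change of 6.60 on TPM. The non-coding gene 3110039I08Rik, which spans let-7a-2, rose from 1.73 ± 0.334 to 125 ± 25.6 CPM (log2 6.14 ± 0.19, edgeR adjusted p = 4.85e-11). Spaca6, which spans let-7e, rose from 23.7 ± 4.29 to 133 ± 8.89 CPM (log2 2.49 ± 0.11, edgeR adjusted p = 1.32e-10).

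The gene over the let-7a-1, let-7d and let-7f-1 cluster, 6720427I07Rik, was at 55.2 ± 4.33 and 126 ± 6.92 CPM (log2 1.19 ± 0.07, edgeR adjusted p = 2.13e-09, but -0.17 once the length trend was removed). Wdr82, a protein-coding gene that spans let-7g, fell by 0.43 on the log2 scale, from 184 ± 8.47 to 137 ± 5.57 CPM (edgeR adjusted p = 1.26e-05), but not on TPM (log2 0.03, limma adjusted p = 0.786), and it was lower once the length trend was removed. Huwe1, which spans let-7f-2 and miR-98 and encodes a ubiquitin ligase, went from 1692 ± 158 to 1407 ± 48.4 CPM (log2 -0.27 ± 0.07, edgeR adjusted p = 0.00318), yet its log2 change was 0.43 on TPM, 0.03 with effective length as an offset and -1.75 once the length trend was removed. Lncppara, over let-7b and let-7c-2, had 3 counts at day 0 and 22 at day 10 and was not tested. A host transcript is not the mature microRNA, and it was counted without any statement on strand.

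Other mRNAs often listed as let-7 targets did not share a direction. Of 23 such genes 21 were tested, with 11 higher, 8 lower and 2 not passing, near the 42.7% higher and 39.4% lower of all tested genes, and the median log2 change was 0.55. Thbs1, an adhesive matrix protein, rose from 23.7 ± 1.38 to 718 ± 108 CPM (log2 4.92 ± 0.12, edgeR adjusted p = 6.80e-13). Irs2, an adaptor of insulin and IGF receptors, rose from 17.1 ± 0.612 to 133 ± 10.3 CPM (log2 2.96 ± 0.08, edgeR adjusted p = 4.75e-13), and Tgfbr1, a receptor for TGF-beta, from 52.8 ± 1.67 to 244 ± 6.14 CPM (log2 2.21 ± 0.06, edgeR adjusted p = 4.40e-13). Cdc34, a ubiquitin-conjugating enzyme of the cell cycle, fell from 101 ± 10.4 to 23.7 ± 1.37 CPM (log2 -2.08 ± 0.09, edgeR adjusted p = 4.38e-11). The rises were smaller once the length trend was removed, with log2 changes of 3.52 for Thbs1, 1.48 for Irs2 and 1.19 for Tgfbr1, all of which passed.

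Grouped by seed matches alone, tested protein-coding genes with 0 matches (12336 genes) had a median log2 change of 0.01, those with 1 match (1462 genes) 0.23, and those with 2 or more (232 genes) 0.34. Higher genes were 42.1%, 49% and 52.6% of these classes, and lower genes 41%, 33.4% and 33.2%. The classes differ in UTR length, with medians of 1265, 2326 and 3606 bases. On TPM the median log2 changes kept that order, at 0.39, 0.58 and 0.62, and after the length trend was removed they were -0.39, -0.41 and -0.57, in the opposite order. With the UTR of the most abundant transcript in place of the longest one, the medians were 0.01 (12783 genes), 0.33 (1104 genes) and 0.56 (1.02% of genes) on counts, 0.39, 0.66 and 0.68 on TPM, and -0.40, -0.38 and -0.40 after the length trend was removed. The rise with the number of matches on counts and TPM was thus seen with both choices of UTR, and with neither once the length trend was removed. These are descriptions over genes, which are not replicates. Among the 10 genes, the 8 with a match included 5 that fell and 3 that rose, and both without one fell.

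MYC acts as a dimer with MAX, against MXD proteins, MNT and MGA that share MAX and repress. Of 12 genes of this network 5 were higher, 5 lower and 2 did not pass (median log2 change 0.04), near the 42.7% higher and 39.4% lower of all tested genes. The antagonist Mxd4 rose from 6.77 ± 0.931 to 80.3 ± 5.32 CPM (log2 3.56 ± 0.11, edgeR adjusted p = 1.34e-12) and Mxd1 from 6.28 ± 1.92 to 49.8 ± 2.58 CPM (log2 2.97 ± 0.16, edgeR adjusted p = 8.48e-10). Mnt rose less (log2 0.59 ± 0.08, edgeR adjusted p = 1.61e-05), and was lower once the length trend was removed (log2 -0.58), where Mxd4 and Mxd1 still rose (log2 2.80 and 1.92). Mga, a MAX partner that holds germ-line genes silent in stem cells, fell from 850.4 ± 78.8 to 534 ± 28.8 CPM (log2 -0.67 ± 0.07, edgeR adjusted p = 8.76e-07), but not on TPM (log2 -0.14, limma adjusted p = 0.207), and was at -2.46 once the length trend was removed.

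All 20 textbook MYC target genes listed fell, with a median log2 change of -1.63, where 39.4% of all tested genes were lower. On TPM 18 of them passed as lower and after removal of the length trend 19, with 0 higher in either. Of all 15097 tested genes, 4095 were lower on TPM and 7827 after removal of the length trend. Falls of the MYC targets were smaller on TPM for some, with log2 changes of -1.5 for Odc1 and -1.23 for Nop56. Odc1, the first enzyme of polyamine synthesis, fell from 876 ± 47.5 to 197 ± 8.35 CPM (log2 -2.15 ± 0.06, edgeR adjusted p = 1.30e-12). The box C/D ribonucleoprotein Nop56 fell from 395 ± 24.6 to 98.8 ± 4.93 CPM (log2 -2.0 ± 0.07, edgeR adjusted p = 3.70e-12), and the mitochondrial chaperonin Hspd1 from 929 ± 26.2 to 269 ± 5.35 CPM (log2 -1.79 ± 0.06, edgeR adjusted p = 1.97e-12). All 8 proliferation genes listed also fell (median log2 change -1.44, with 39.4% of all tested genes lower), among them the mitotic checkpoint kinase Bub1b (log2 -1.80 ± 0.06, edgeR adjusted p = 3.69e-12, and -2.57 once the length trend was removed), the replication helicase subunit Mcm2 (log2 -1.64 ± 0.06, edgeR adjusted p = 5.74e-12) and the mitotic cyclin Ccnb1 (log2 -1.80 ± 0.07, edgeR adjusted p = 9.03e-12). On TPM Mki67 of this proliferation list did not pass (log2 -0.11, limma adjusted p = 0.296), and the others passed as lower. The part of proliferation in the fall of the MYC targets was not tested.

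Of mRNAs reported to be held down by TRIM71, all 4 listed were higher at day 10, where 42.7% of all tested genes were. Their median log2 change was 1.30. With the effective length offset 3 passed, where 6161 of all tested genes were higher. Egr1, an immediate early transcription factor, rose from 15.8 ± 2.52 to 1059.8 ± 171 CPM (log2 6.07 ± 0.15, edgeR adjusted p = 1.16e-11). The pocket protein Rbl2 rose from 14.2 ± 2.61 to 42.1 ± 3.16 CPM (log2 1.57 ± 0.12, edgeR adjusted p = 2.49e-08), and the CDK inhibitor Cdkn1a from 11.6 ± 2.85 to 23.6 ± 2.39 CPM (log2 1.03 ± 0.16, edgeR adjusted p = 3.62e-05). After the length trend was removed Egr1 was at 5.34 and Rbl2 at 0.67, both still higher, and Rbl1, the fourth, was lower (log2 -0.60, edgeR adjusted p = 1.7e-05).

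Among 9 genes of the IGF2 axis and partners of the IGF2BP proteins, 3 were higher, 4 lower and 2 did not pass (median log2 change -0.13), beside 42.7% and 39.4% of all tested genes. Igf2 itself, the growth factor whose mRNA gave the family its name, had 503 counts over the day 0 libraries and 361292 over the day 10 libraries, from 9.57 ± 1.20 to 5955 ± 980.1 CPM, and is named here after its values were seen. H19, the non-coding neighbour of Igf2 in the imprinted domain, rose from 28.9 ± 2.75 to 4546 ± 659 CPM (log2 7.30 ± 0.13, edgeR adjusted p = 6.51e-14). Ybx1, an RNA-binding partner, fell from 756 ± 59.3 to 189 ± 20.4 CPM (log2 -2.0 ± 0.08, edgeR adjusted p = 3.68e-11), with a log2 change of -1.28 on TPM.

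Smaller falls were seen in Hnrnpu (log2 -0.52 ± 0.07, edgeR adjusted p = 9.66e-06) and Syncrip (log2 -0.45 ± 0.06, edgeR adjusted p = 3.41e-06), RNA-binding proteins found in IGF2BP1 complexes. On TPM, Hnrnpu had a log2 change of 0.12 and Syncrip of -0.11, and neither passed, while Syncrip was at -1.34 once the length trend was removed. Of 7 other HMG proteins 3 were higher, 3 lower and 1 did not pass, close to those shares. Hmgn3 (log2 2.0 ± 0.24), Hmgb3 (1.38 ± 0.08) and Hmgn2 (1.24 ± 0.10) rose, and Hmgb2, a DNA-bending protein of cycling cells, fell from 627 ± 58.1 to 171 ± 17.9 CPM (log2 -1.87 ± 0.09, edgeR adjusted p = 1.02e-10, and -1.24 once the length trend was removed).

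**Figure D3:**
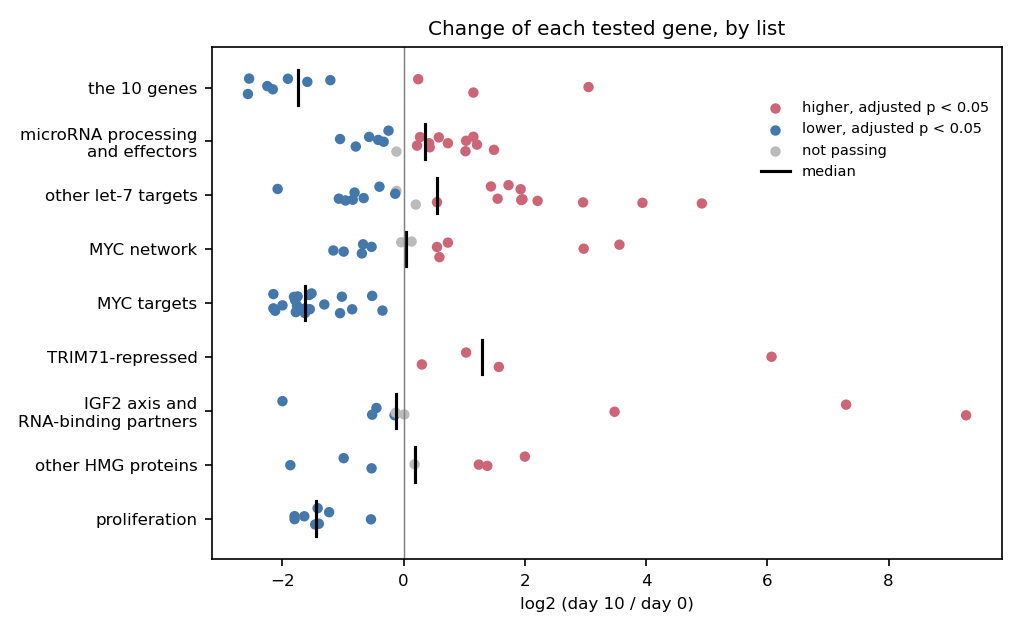
Log2 change of day 10 over day 0 for each tested gene of each list, with genes higher (red), lower (blue) or not passing (grey) at an adjusted p of 0.05 and a black bar at the list's median. The 10 genes split into 7 lower and 3 higher, all 20 MYC targets and all 8 proliferation genes lie below 0, and the microRNA processing and MYC network lists lie on both sides, with a balance that changes once transcript length is corrected.

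Transcript length bore on several of the values. Removing the trend of log2 change with length moved Trim71 from -2.57 to -4.38, Lin28b from -1.59 to -2.76, Igf2bp1 from -1.21 to -2.50, Hmga2 from 3.05 to 2.11 and Igf2bp2 from 1.15 to 0.40, and it turned Igf2bp3 to -0.83. The median over all tested genes was -0.38 in that fit. With the effective length of each gene in each library as an offset, the values stayed near those of the counts, from -2.54 for Trim71 to 3.08 for Hmga2, with 0.28 for Igf2bp3. On TPM the falls were smaller and the rises larger, from -2.18 for Trim71 to 3.43 for Hmga2, with a median of 0.43 over all genes.

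**Figure D4:**
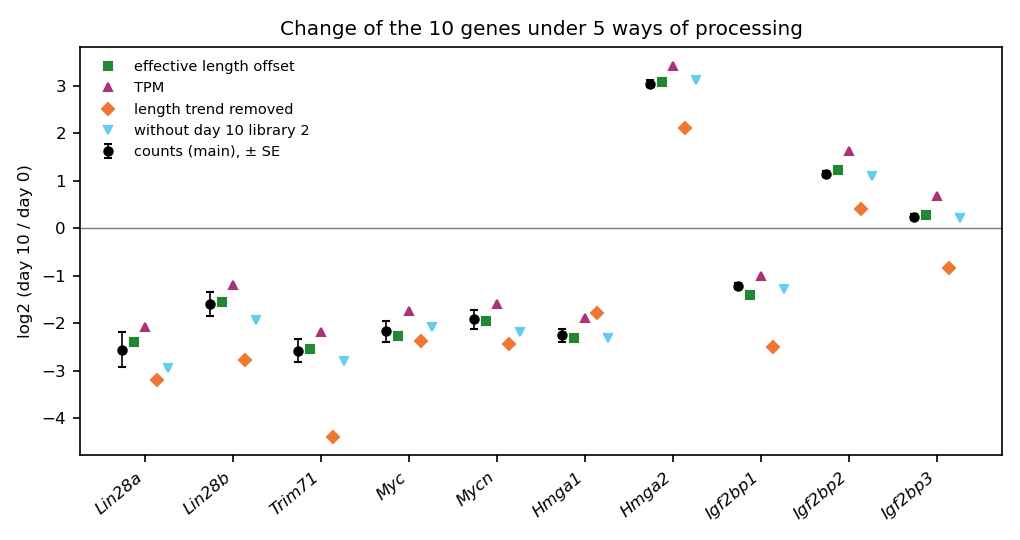
Log2 change of day 10 over day 0 for each of the 10 genes from counts (black, ± SE), with an effective length offset, on TPM, after removal of the length trend, and without day 10 library 2. Of the 10 genes, Igf2bp3 is the one whose sign turns, to -0.83 after removal of the length trend, and the other 9 keep theirs.

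Among 11047 protein-coding genes of at least 5 CPM on average, those whose log2 CPM followed Trim71, the gene with the lowest change, most closely over the 8 libraries were Sall4 (Pearson r = 0.9989), Ermp1 (0.9985) and Sfxn1 (0.9984). Sall4, a zinc finger factor of stem cells, went from 268 ± 16.5 to 42.8 ± 13.3 CPM. Hmga2, the gene with the highest change, was followed most closely by Phactr2 (r = 0.9998), Ghr (0.9997) and Smarca2 (0.9996). Ghr, the growth hormone receptor, went from 19.2 ± 0.853 to 216 ± 20.2 CPM, and Smarca2, a chromatin remodelling ATPase, from 30.2 ± 0.753 to 229 ± 26.3 CPM. The 8 libraries form 2 groups, so these r values carry mostly the difference between the days.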

How the data were processed

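Total RNA of 8 libraries was compared, 4 per day, prepared with a ribosomal RNA depletion kit per the labels' protocols. The authors deposited, per the file headers, 1 table per library with 126126 transcripts, giving length and effective length in bases, an estimated count that is not scaled, and TPM, which is scaled for effective length. The submitters' processing notes name kallisto (version 1, with no further digits) and DESeq2. Which transcript set, genome build or annotation they used is not given in the sources used here. Of the estimated counts deposited by the authors 40.3 to 46.3% were not whole within 1e-06, since kallisto shares reads between transcripts, so copies such as Hmga1 and Hmga1b are uncertain one by one.

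Identifiers without their version joined 117992 transcripts (93.6%) to GENCODE M21. The rest held 1.15 to 1.23% of counts and were left out. Counts were summed per gene (32780 genes), rounded, and tested with edgeR 4.0.16 under R 4.3.3 (robust quasi-likelihood fit after filterByExpr and TMM scaling, glmTreat for changes over 2-fold) and Benjamini-Hochberg adjustment over 15097 genes at 0.05. TPM was tested with limma 3.58.1 on log2(TPM + 0.5), so low genes' changes are understated there. Each SE was taken from the quasi-likelihood F, as the size of the log2 change over the root of F. Paralogue ratios (TPM + 0.1) and transcript shares were compared by exact permutation tests over 70 assignments. Shares were tested for genes with a second transcript at 10% or more of TPM and at least 10 counts in every library. The script was tested on simulated data.

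All 10 genes are named, and from each list up to 3 passing genes with the smallest p in the direction of most calls and 1 in the other, with the 3 genes most like the lowest and the highest of the 10. Genes, lists and tests were chosen with earlier results of these data known. The alternatives were other scalings (DESeq2 1.42.0 size factors, upper quartile), the DESeq2 test, no filter or 10 CPM in 4 libraries, TPM, length corrections, a replicate block, and leaving out each library. Of 5 host gene names listed, 2 were matched, and the others were replaced by a search by position.

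Replicate numbers 1 to 4 occur on both days, and no label says what they mark, so the fit has no block.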

Additional observations from a re-analysis of the deposited data

Results flagged for a closer look

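In 2 of 20 groups of 4 libraries (10 genes on 2 days), 1 library lay far from the others by Dixon's test at the 95% level, where chance marks about 1 in 20. Hmga1 was at 121.7 CPM in day 0 library 2, while the other day 0 libraries were at 183 to 189.8 CPM, a gap of 0.901 of the range. The copy Hmga1b was also lowest there, at 92.4 CPM. Hmga2 was at 234 CPM in day 10 library 2, while the other day 10 libraries were at 283 to 292 CPM, a gap of 0.844 of the range. Without that library the log2 change of Hmga2 was 3.12 in place of 3.05.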

How the results depend on the processing

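Over 19 alternatives, 9 of the 10 genes kept their direction and passed the threshold in all 19, with log2 changes of -3.20 to -2.08 for Lin28a, -2.76 to -1.19 for Lin28b, -4.38 to -2.18 for Trim71 and 2.11 to 3.46 for Hmga2. Igf2bp3 did so in 18 and was -0.83 with the length trend removed, where Mnt was -0.58 and Tnrc6b -0.70. On TPM Hnrnpu was 0.12 and Huwe1 0.43, and Huwe1 was 0.03 with the length offset. The cause was not tested. Of all tested genes, 7863 were higher and 4095 lower on TPM, and 4762 and 7827 with the length trend removed. With the length offset 6161 were higher and 5614 lower. On TPM, passing genes were 2 lower for microRNA processing, 2 higher and 0 lower for host genes, 4 lower for other let-7 targets, 1 lower for the MYC network, and 5 higher and 1 lower for the IGF2 axis. With the length trend removed they were 5 higher and 13 lower for microRNA processing, 3 higher and 8 lower for the MYC network, 1 lower for the TRIM71 list and 1 lower for other HMG proteins, and with the length offset 0 host genes were lower. Leaving out 1 library gave 1 to 2 genes over 2-fold higher (1 without day 0 library 1 and without day 10 library 2). The log2 differences of the ratios were then 0.78 to 1.04 for Lin28b to Lin28a, 5.25 to 5.50 for Hmga2 to Hmga1, 2.0 to 2.10 for Igf2bp2 to its relatives and -0.10 to 0.42 for Mycn to Myc, which was -0.08 without day 0 library 1 and -0.10 without day 10 library 2. With 35 assignments the 3 that had passed had adjusted p up to 0.0762. Share differences were -4.2 to 0.30 percentage points for Lin28b-201, -9.4 to 7.8 for Mycn-201 and -0.30 to 8.0 for Myc-201, of which none passed with all libraries either.

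With the replicate number as a block, 6403 genes were higher and 5895 lower, and Lin28a was at -2.68 (edgeR adjusted p = 0.00139). The block changed no call among the 10 genes. Deviations of same-numbered libraries correlated at 0.0301 to 0.0494 and others at -0.0720 to 0.0278 (all 8 correlate best with their own number, a hint from the data and not the design), so the numbers were not taken as pairs. Depth limits Myc most, with 79 to 106 counts per day 10 library.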
